A study of Mus musculus with 6 samples.

Results

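Of 19613 genes measured on 6 mouse exon arrays, 9 were examined here as genes of the astrocyte and oligodendrocyte lineages, and all 9 were found in the table by their gene symbols. They were chosen by name, with earlier results of these data known. Fabp7 and Sox9 stood for early glia, Gfap, S100b and Aldh1l1 for astrocytes, Sox10, Pdgfra and Cspg4 for oligodendrocyte precursors, and Mbp for myelinating oligodendrocytes. The arrays measured embryoid bodies, which are aggregates grown from HBG3 HB9 mouse embryonic stem cells (spelled HGB3 in the study's methods) in which the motor neuron gene Hb9 drives a green fluorescent protein. Retinoic acid and a hedgehog agonist had been used to turn them into spinal motor neurons, and only part of the cells in such aggregates become motor neurons. All 6 cultures formed 1 group and were exposed to blood fluid of the Huntington's disease strain B6CBA-Tg(HDexon1)62Gpb/3J, a transgenic line with part of human huntingtin. The donors were male carriers before the onset of symptoms, and the fluid is called plasma in the sample labels and serum in the study's methods. The arrays are named below by their label numbers, replicates 2, 4, 5, 6, 7 and 8. No control arrays were analysed, so the values describe levels under this fluid and not a response to it. The study ran its assays in groups, with a separate batch of differentiated cells for each, and whether these 6 arrays came from 1 batch or several is not given, so the SDs and p-values measure the spread between these arrays, which may be partly technical.

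In the developing spinal cord, the neuroepithelium makes neurons first and glia afterwards. Radial glia express Fabp7, Vim and Nes from the neurogenic phase on, and Sox9 and NFI factors act in the switch towards gliogenesis. Astrocytes then gain Aldh1l1, S100b and Gfap. In the ventral cord the Olig2 domain that has produced motor neurons goes on to produce oligodendrocyte precursors with Sox10, Pdgfra and Cspg4, which later make the myelin proteins Mbp, Mag and Mog.

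The question was which stages of the glial lineages gave signal above background in these aggregates. Background was read from 1032 olfactory receptor (Olfr) genes, most of which are silent outside olfactory tissue. The 95th percentile of these genes, taken on each array by itself, was the background level, and it ranged from a log2 intensity of 7.26 in replicate 8 to 7.60 in replicate 5. A gene was called above or below background when limma's moderated test of its log2 intensity minus that level gave an adjusted p under 0.05. Probes differ in affinity between genes, so each gene was set against background and not against the other members. In bulk RNA, fewer cells of a type and less RNA per cell cannot be told apart.

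Among the members, the early glial genes were far above background. Those of astrocytes and oligodendrocyte precursors lay close to it, apart from Pdgfra, which lay below it. Of the 9 members, 7 were called above background, where 62.9% of all genes were. Pdgfra was called below, as were 33.2% of all genes, and Gfap was not told apart from background, as were 3.97% of all genes. The 7 calls differed in size. With the stricter 99th percentile of the Olfr genes as background, Fabp7 and Sox9 were the members still called above, where 43.8% of all genes were. The count below was then 6, against 48.8% of all genes, and Mbp was not told apart from that level, as were 7.41%. With the 95th percentile of 164 vomeronasal receptor genes, a lower background, 8 members were above, against 74.4% of all genes, Pdgfra alone was below, as were 20.4%, and 0 members were not told apart, against 5.24%.

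**Figure D1:**
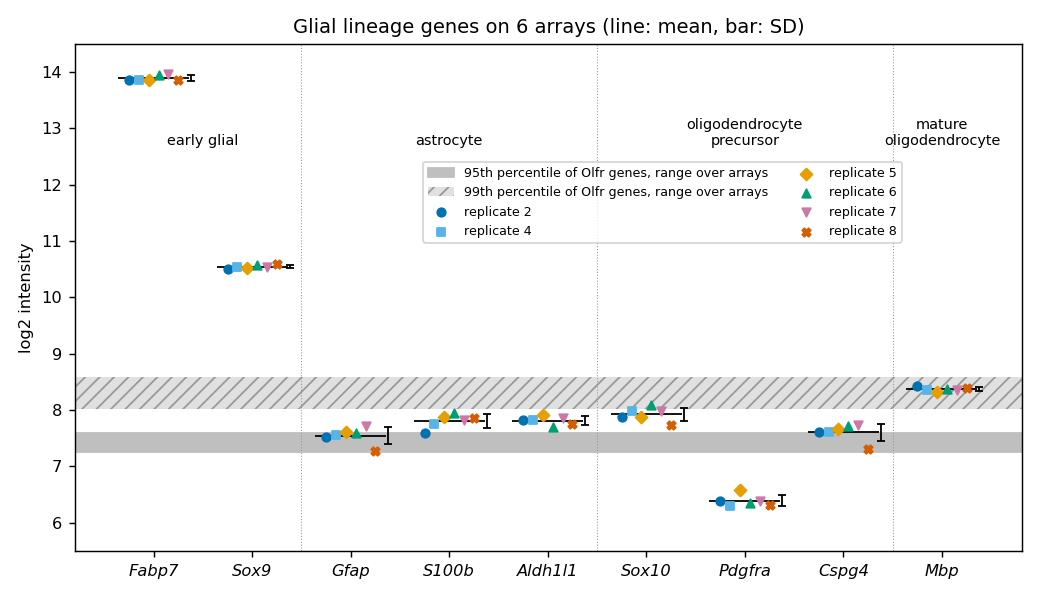
Log2 intensity of the 9 members (vertical axis) on each of the 6 arrays, with the mean as a line and the SD as a bar. The dark and hatched bands give the range over arrays of the 95th and 99th percentiles of the olfactory receptor genes. Fabp7 and Sox9 sit above both bands, Gfap and Cspg4 at the edge of the dark band, Mbp within the hatched band, and Pdgfra below both.

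Fabp7 encodes the brain fatty acid binding protein of radial glia. On the log2 scale it read 13.86 in replicate 2, 13.85 in replicate 4, 13.86 in replicate 5, 13.95 in replicate 6, 13.98 in replicate 7 and 13.87 in replicate 8. These values were nearly flat, the highest array exceeding the lowest by 1.09-fold. The mean of 13.90 ± 0.053 (SD, n = 6) was above the mean of 99.9% of all genes and of each Olfr gene, on a scale that ranks intensities and not transcript amounts. Its difference from background was 6.41 ± 0.045 on the log2 scale (SE, adjusted p = 6.72e-18 by limma), or 84.9-fold.

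Sox9 is a SoxE transcription factor that acts early in gliogenesis, and its signal in bulk RNA cannot be assigned to glia alone. The arrays gave log2 intensities of 10.51, 10.53, 10.53, 10.58, 10.54 and 10.59 in replicates 2, 4, 5, 6, 7 and 8. The highest was 1.05 times the lowest, and the mean was 10.55 ± 0.029 (SD, n = 6). Its difference from background was 3.06 ± 0.064 on the log2 scale (SE, adjusted p = 2.64e-14 by limma), or 8.33-fold. Its SD was below the lower quartile of 0.044 for the 2028 genes within 0.5 of its mean log2 intensity.

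Gfap encodes the intermediate filament of mature astrocytes. Its log2 intensity was 7.53, 7.56, 7.62, 7.59, 7.73 and 7.27 in replicates 2, 4, 5, 6, 7 and 8, highest in replicate 7 and lowest in replicate 8. The mean was 7.55 ± 0.15 (SD, n = 6), and 39 of the 1032 Olfr genes had a higher mean. Although all 6 arrays were above their own background level, the difference was 0.061 ± 0.041 on the log2 scale (SE, adjusted p = 0.169 by limma) and did not pass. Against the lower level of the vomeronasal receptor genes, Gfap was called above by 0.72. Its SD was 0.074 without replicate 8 and 0.086 after quantile normalization of the arrays.

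S100b encodes a calcium-binding protein of astrocytes that is also made by Schwann cells, melanocytes and some neurons. Its log2 intensity was 7.59, 7.75, 7.87, 7.94, 7.83 and 7.86 in replicates 2, 4, 5, 6, 7 and 8. Replicate 2 was the lowest array, and the SD of 0.12 around the mean of 7.81 was 0.069 without it. The difference from background was 0.32 ± 0.056 on the log2 scale (SE, adjusted p = 0.000102 by limma).

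Aldh1l1, a folate enzyme used as a marker of the whole astrocyte population, had log2 intensities of 7.83, 7.83, 7.91, 7.71, 7.86 and 7.75 in replicates 2, 4, 5, 6, 7 and 8. The mean was 7.81 ± 0.075 (SD, n = 6), and the difference from background was 0.33 ± 0.050 (SE, adjusted p = 2.66e-05 by limma). S100b and Aldh1l1 were thus above the background level by 1.25-fold each, and 26 Olfr genes had a higher mean than either. Against the 99th percentile of the Olfr genes, each of the 3 astrocyte genes was below background, with differences of -0.82 for Gfap, -0.56 for S100b and -0.56 for Aldh1l1.

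The promoters of Fabp7 and Gfap are shown because these genes mark the early and the late end of the astrocyte lineage and lay farthest from background and nearest to it among the 9. Both are RefSeq sequences of the build GRCm38.p6 from 250 bases before the gene's start to 50 after it, that of Fabp7 at chr10:57784673-57784972 on the plus strand and that of Gfap at chr11:102897151-102897450 on the minus strand. In Fabp7, capitals mark ATTGT, the reverse complement of the Sox core ACAAT, and TTGGC, the core of the site of NFI factors. In Gfap they mark a match to the STAT motif TTCNNNGAA.

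Fabp7: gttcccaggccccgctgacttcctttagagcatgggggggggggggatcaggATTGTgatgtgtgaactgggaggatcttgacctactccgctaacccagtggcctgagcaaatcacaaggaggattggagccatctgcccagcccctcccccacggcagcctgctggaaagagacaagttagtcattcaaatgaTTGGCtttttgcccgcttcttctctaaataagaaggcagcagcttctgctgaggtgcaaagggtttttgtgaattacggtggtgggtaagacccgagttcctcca

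Gfap: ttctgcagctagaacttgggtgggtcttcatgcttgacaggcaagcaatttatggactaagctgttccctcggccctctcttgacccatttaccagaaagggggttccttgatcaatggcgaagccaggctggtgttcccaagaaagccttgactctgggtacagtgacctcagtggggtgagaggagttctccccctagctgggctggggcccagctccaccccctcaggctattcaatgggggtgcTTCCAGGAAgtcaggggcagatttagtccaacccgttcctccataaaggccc

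On both strands, ACAAT was found in 31.0% of the 32851 promoters of the table, TTGGC in 46.7% and TTCNNNGAA in 8.30%. The Fabp7 promoter held 1 match each to ACAAT and TTGGC and 0 to TTCNNNGAA, and the Gfap promoter held 1 match to TTCNNNGAA and 0 to either of the other motifs. In both promoters, 0 matches were found to GTGGGAA, the core of the Notch effector RBPJ, and 0 to TATAAA, which 6.38% and 13.6% of promoters held. The promoters had 6 CG dinucleotides in Fabp7 and 3 in Gfap, against a median of 7. These matches describe letters and were not related to the levels.

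Among the oligodendrocyte precursor genes, Sox10, a SoxE factor kept through the whole lineage and also used in neural crest, had log2 intensities of 7.88, 7.99, 7.88, 8.08, 7.98 and 7.74 in replicates 2, 4, 5, 6, 7 and 8. The mean was 7.93 ± 0.12 (SD, n = 6), and replicate 8 was the lowest array. The difference from background was 0.44 ± 0.047 (SE, adjusted p = 6.55e-07 by limma), or 1.35-fold.

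Cspg4 encodes the NG2 proteoglycan of oligodendrocyte precursors and pericytes. Its log2 intensity was 7.61, 7.61, 7.67, 7.72, 7.73 and 7.31 in replicates 2, 4, 5, 6, 7 and 8, with replicate 8 well apart from the others. The SD of 0.15 around the mean of 7.61 was 0.057 without replicate 8 and 0.081 after quantile normalization. The difference from background was 0.12 ± 0.040 (SE, adjusted p = 0.0114 by limma), or 1.09-fold, the smallest among the 7 members called above.

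Pdgfra encodes the receptor through which platelet-derived growth factor maintains oligodendrocyte precursors. Its log2 intensity was 6.39, 6.31, 6.58, 6.35, 6.39 and 6.32 in replicates 2, 4, 5, 6, 7 and 8. All 6 arrays were below background, and the highest, replicate 5, stood apart. The mean was 6.39 ± 0.098 (SD, n = 6), and 219 Olfr genes had a higher mean. The difference was -1.10 ± 0.049 (SE, adjusted p = 4.01e-11 by limma), and Pdgfra was called below under the vomeronasal background too, at -0.44. Without replicate 5 the SD was 0.040.

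Mbp encodes myelin basic protein, and the same gene also yields golli transcripts, which are made outside myelinating cells and which a mean over all exons does not separate. Its log2 intensity was 8.42, 8.36, 8.32, 8.38, 8.36 and 8.40 in replicates 2, 4, 5, 6, 7 and 8. The mean was 8.37 ± 0.035 (SD, n = 6), and 4.28% of the 3922 genes of like level had a lower SD. The difference from background was 0.89 ± 0.057 (SE, adjusted p = 2.63e-09 by limma), close to the median of 0.77 over all genes.

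Wider lists of marker genes were then read against the same background. Of the 13 matched genes of radial glia and gliogenic progenitors, 11 were above background and 2 below, or 84.6% above against 62.9% of all genes, with a median difference of 2.25 on the log2 scale against 0.77 over all genes. The largest differences were 6.14 ± 0.049 for Vim, an intermediate filament of radial glia, 4.33 ± 0.064 for the progenitor factor Sox2, 3.31 ± 0.060 for the growth factor receptor Fgfr3 and 3.20 ± 0.065 for the receptor phosphatase Ptprz1 (SE). Pax6, a factor of neural progenitors, was below background at -0.60 ± 0.056, and the matrix protein gene Tnc at -0.50 ± 0.040 (SE). With the 99th percentile as background 11 were above too, where 43.8% of all genes were.

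Of the 17 matched genes of mature astrocytes, 12 were above background, or 70.6% against 62.9% of all genes, with a median difference of 0.76. The largest were 2.80 ± 0.072 for Sparcl1, 2.57 ± 0.074 for Aldoc, 2.53 ± 0.068 for the glutamine synthetase gene Glul and 2.08 ± 0.068 for the glutamate transporter gene Slc1a2 (SE). These genes are also used by neurons or radial glia. Below background were the connexin gene Gjb6, at -0.095 ± 0.041, and the amino acid transporter gene Slc7a10, at -0.21 ± 0.045 (SE), and the water channel gene Aqp4, Clu and the potassium channel gene Kcnj10 were not told apart from it. With the 99th percentile as background 7 were above, where 43.8% of all genes were.

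In the list of oligodendrocyte precursor and committed genes, 8 of 12 matched genes were above background and 4 below. The share above was 66.7%, near the 62.9% of all genes, and the median difference was 1.53, against 0.77 over all genes. With the 99th percentile as background 8 were above too, where 43.8% of all genes were. The largest differences were 3.29 ± 0.072 for Nkx2-2, 3.20 ± 0.073 for the proteoglycan gene Vcan, 2.40 ± 0.063 for Sox6 and 1.72 ± 0.081 for Tnr (SE). Olig2 and its neighbour Olig1 were at 1.51 ± 0.061 and 1.10 ± 0.051 (SE). Nkx2-2 and Olig2 also mark ventral neuronal progenitor domains, Olig2 that of motor neurons. The 4 genes below background were Enpp6, at -1.31 ± 0.053, Bcas1, at -0.73 ± 0.041, Neu4, at -0.26 ± 0.043, and the receptor gene Gpr17, at -0.11 ± 0.041 (SE), of which Enpp6, Bcas1 and Gpr17 mark cells committed to myelination.

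Of the 16 genes of mature oligodendrocytes, 8 were above background, 7 below and 1 not told apart, or 50% above against 62.9% of all genes, with a median difference of 0.12. Above it were Nkx6-2 at 2.30 ± 0.060, which is also a factor of ventral progenitors, the tetraspanin gene Tspan2 at 1.11 ± 0.062, the tight junction gene Cldn11 at 0.98 ± 0.045 and the myelin regulatory factor gene Myrf at 0.97 ± 0.046 (SE). The lowest were Aspa at -2.33 ± 0.066, Ermn at -1.78 ± 0.056 and Opalin at -1.16 ± 0.051 (SE), and the myelin genes Mag and Mog were at -0.80 ± 0.044 and -0.42 ± 0.053 (SE). With the 99th percentile as background 2 of the 16 were above, where 43.8% of all genes were.

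Cell types that share members of the lineages were measured in the same way, and are again to be read against the 62.9% of all genes above background. All 7 matched neuronal genes were above background, by 4.16 to 5.32, as were the motor neuron genes Isl1, Olig2, Lhx3 and Mnx1, by 0.99 to 2.85. Of 12 neural crest and Schwann genes, 5 were above, led by the neurotrophin receptor gene Ngfr at 3.46 ± 0.064 (SE), which motor neurons also use, while Foxd3, Tfap2a and Erbb3 were below. Of 12 genes of mesenchyme and pericytes, 5 were above, or 41.7%, namely the proteoglycan gene Dcn at 4.52 ± 0.054 (SE), the collagen genes Col1a1 at 1.15, Col3a1 at 0.78 and Col1a2 at 0.73, and Acta2 at 0.53. Of the 7 below, Lum was lowest at -1.78, and the pericyte receptor gene Pdgfrb was at -0.42 ± 0.043 (SE). Of 6 melanocyte genes, Mitf was the 1 above, at 0.14 ± 0.050, and of 5 matched cartilage genes 3 were above, led by Col2a1 at 1.99 ± 0.055 (SE). Of 8 microglial genes 4 were above, from 0.12 for Trem2 to 0.82 ± 0.059 (SE) for Cd68, while Aif1, Cx3cr1, Tmem119 and P2ry12 were below. The differences of Gfap, S100b, Aldh1l1, Sox10, Cspg4 and Mbp, 0.061 to 0.89, were thus of the size found in such genes of other cell types, whose part in the levels of the members was not tested. Dcn, Ngfr and Col2a1 were well above background, and which cells gave the signal of Fabp7, Sox9, Vim and Sox2 was not tested either.

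**Figure D2:**
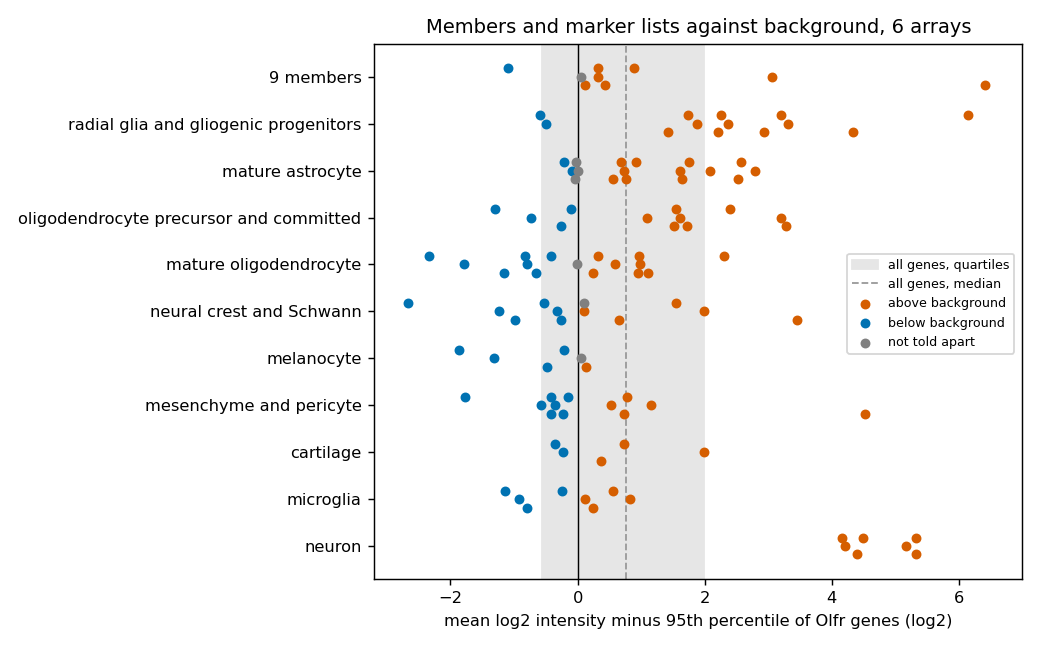
Mean log2 intensity minus the 95th percentile of the olfactory receptor genes (horizontal axis, log2), 1 point per gene, for the 9 members and 10 lists of markers, coloured by the call against background. The grey band gives the quartiles over all genes and the dashed line their median of 0.77. Genes of radial glia and neurons lie mostly to the right of the band, and those of mature oligodendrocytes lie on both sides of 0.

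The next question was whether the members varied together over the 6 arrays. Of the 36 pairs, 0 passed an adjusted p of 0.05 in the exact permutation test of Pearson's r, and 2 had an unadjusted p under 0.05. With 36 pairs and 6 arrays, 1 pair alone can reach no adjusted p below 0.05. Gfap and Cspg4 had the highest r, 0.96 (exact p = 0.00833, adjusted p = 0.300) with a Spearman's rho of 0.94 (exact p = 0.0167, adjusted p = 0.60), and with the 2 most extreme arrays for Gfap set aside r was 0.69. Sox10 and Cspg4 followed with an r of 0.84 (exact p = 0.0361, adjusted p = 0.60) and a rho of 0.60 (exact p = 0.242, adjusted p = 0.892), and with the 2 most extreme arrays for Sox10 set aside r was 0.28.

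The members were also set against the background level of the arrays, a comparison added after the values were seen. In the exact permutation test 0 of the 9 had an adjusted p under 0.05. Pearson's r was positive for 7 of the 9. With the 95th percentile of the Olfr genes, the highest r was 0.94 for Cspg4 (exact p = 0.0167, adjusted p = 0.0813 over 9 members) and 0.90 for Gfap (exact p = 0.0181, adjusted p = 0.0813). Spearman's rho was 0.71 for Cspg4 (exact p = 0.136, adjusted p = 0.408) and 0.77 for Gfap (exact p = 0.103, adjusted p = 0.408), and r fell to 0.79 and 0.62 once the 2 arrays of most extreme background were set aside. Next came Sox10 with an r of 0.69 (exact p = 0.135, adjusted p = 0.404), Pdgfra with 0.60 (exact p = 0.206, adjusted p = 0.463) and Fabp7 with 0.52 (exact p = 0.322, adjusted p = 0.510). The negative values were -0.37 for Sox9 (exact p = 0.469, adjusted p = 0.528) and -0.48 for Mbp (exact p = 0.340, adjusted p = 0.510). After each array's background level was subtracted, r between Gfap and Cspg4 was 0.78 (exact p = 0.0875, adjusted p = 0.417), and with no subtraction it was 0.78 without replicate 8, the array with the lowest background. The leading pairs after subtraction were Sox9 and Mbp with an r of 0.96 (exact p = 0.00278, adjusted p = 0.10), Fabp7 and Sox9 with 0.94 (exact p = 0.00694, adjusted p = 0.125) and Fabp7 and Mbp with 0.91 (exact p = 0.0111, adjusted p = 0.133). These pairs share the subtracted level, and before subtraction their r was 0.077, 0.29 and -0.10. Of the 36 pairs after subtraction, 4 had an unadjusted exact p under 0.05 and 0 an adjusted one. Replicate 8 was the lowest array for Gfap, Cspg4, Sox10 and the background alike, and not for the other 6 members. It also had the lowest median intensity over all genes, 296, against 311 in replicate 5, the highest. The means of the mature astrocyte, mature oligodendrocyte, neural crest and Schwann, and melanocyte lists were lowest in replicate 8 too. So were those of the mesenchyme and pericyte, cartilage and microglia lists, while the neuron mean was highest there.

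**Figure D3:**
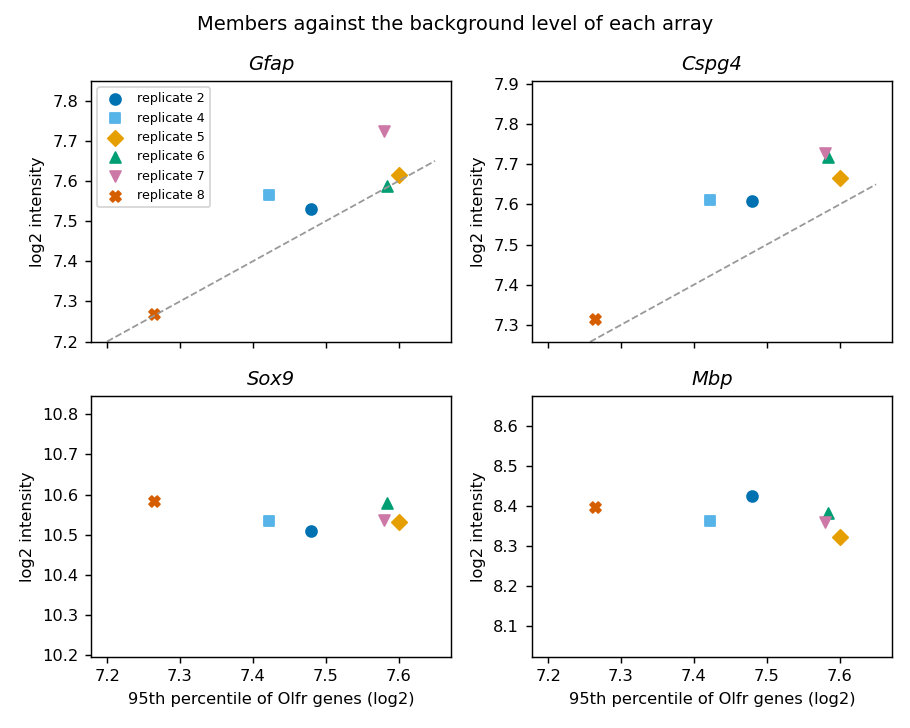
Log2 intensity of Gfap, Cspg4, Sox9 and Mbp (vertical axes, each spanning the same range) against the 95th percentile of the olfactory receptor genes on the same array (horizontal axis, log2), 1 point per array. The dashed line in the upper panels marks equal values. Gfap and Cspg4 lie just above that line and are lowest in replicate 8, and Sox9 and Mbp are nearly level across arrays.

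The members were also set against a motor neuron mean over 4 genes, Isl1, Lhx3, Mnx1 and Olig2, by which the study's methods correct expression for variation from batch to batch of neurons. That correction yields log2 ratios, and the values used here are linear intensities from before it. Pearson's r over the 6 arrays ranged from -0.47 for Mbp to 0.56 for Pdgfra, and in the exact permutation test 0 of 9 relations passed an adjusted p of 0.05 and 0 had an unadjusted p under 0.05, by r or by Spearman's rho. The lowest adjusted p for r was 0.606, and for Pdgfra r was -0.55 once the 2 arrays of most extreme motor neuron mean were set aside. The smallest adjusted p that 1 relation alone can reach in this family is 0.0125.

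For each member called above background, the genes most alike in their course over the 6 arrays were sought among the 12320 other genes above background, as a description. Spcs2 was most alike to Fabp7 (Pearson's r of 0.999), followed by Mutyh at 0.993 and Ube2v1 at 0.984. For Sox9 they were Prrc2c at 0.998, 2700060E02Rik at 0.990 and Dos at 0.984, and for Mbp they were Stc1 at 0.981, Ptprn2 at 0.979 and Scamp1 at 0.978. Aldh1l1 was most alike to Qrsl1 at 0.997, 1700001K19Rik at 0.971 and Dnase1l2 at 0.960, and S100b to Ikbkb at 0.989, Eef1a1 at 0.976 and Srsf6 at 0.975. Sox10 was most alike to Pip5k1b at 0.990, Dtwd2 at 0.984 and Strn4 at 0.982, and Cspg4 to Gm9992 at 0.999, Camk1 at 0.998 and Prss34 at 0.997. An r over 0.9 was found with 852 genes, 6.92% of those compared, for Cspg4, and with 31 to 149 genes, 0.252% to 1.21%, for each of the other 6 members. With 6 arrays and 12320 genes searched, unrelated genes can reach such values of r, and no test of these likenesses was made.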

How the data were processed

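RNA of 6 cultures was hybridized to Affymetrix mouse exon arrays. For each gene the authors deposited 1 linear intensity per array, which, per the labels and the study's methods, is an RMA value averaged over the exons annotated to that gene. Which arrays were normalized together and the genome build are not given in the sources used here. The table held 0 columns of other samples. Names altered by software were restored for 1193 genes, and of 19613 names 17533 were current symbols and 1821 synonyms in RefSeq (GRCm38.p6). Nfia, Slc1a3, Gja1, Lhfpl3, Sox5 and Syt1 were not matched and not analysed here, and single values of some listed genes are not reported here.

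Values were taken to log2 with no pseudocount. The 95th percentile of Olfr genes of each array was subtracted, and the difference from 0 was tested with limma 3.58.1 (R 4.3.3), with a variance trend and two-sided, over all 19613 genes with Benjamini-Hochberg adjustment. On simulated data 48 of 50 genes placed at a log2 difference of 0.25 were called on the right side, and 1 of 50 placed at background was called. These genes kept the SDs of their original levels and were drawn independently, with no shift shared within an array. The rates therefore need not hold for members near background on these arrays. Correlations used two-sided exact permutation over 720 pairings. Precision is limited by the number of arrays. From each wider glial list, the genes on the rarer side of background were named where 5 or fewer. Up to 4 with the largest differences above it and 3 below it were named as well. A few others were named after their values were seen. In the lists of other cell types this rule was not followed throughout, and the genes named there are examples. The members and lists were chosen with earlier results of these data known. The alternatives were the 99th percentile, vomeronasal genes as background, quantile normalization, median centring, a pseudocount of 16, no variance trend, a filter on low values and leaving out each array.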

Additional observations from a re-analysis of the deposited data

Results flagged for a closer look

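Over the 9 members and the means of 11 lists, 20 sets of 6 values were searched for 1 outlying array with Dixon's ratio, which divides the distance between the outermost value and the next by the span of all 6. The ratio passed its 95% critical value in 3 sets, where chance gives about 1 in 20 independent sets. Sets that share a shift of a whole array are not independent. Pdgfra was highest in replicate 5, at a log2 intensity of 6.58 against 6.39 in the next array (ratio 0.68). Cspg4 was lowest in replicate 8, at 7.31 against 7.61 (ratio 0.71). The mean of the melanocyte list was lowest in replicate 8, at 6.65 against 6.87 (ratio 0.70). The background level of the Olfr genes was highest in replicate 5, at 7.60, and lowest in replicate 8, at 7.26. The exact permutation test of Pearson's r with that level gave 0.94 for Cspg4 (exact p = 0.0167, adjusted p = 0.0813) and 0.60 for Pdgfra (exact p = 0.206, adjusted p = 0.463) over the 6 arrays, and for the melanocyte list this relation was not tested.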

How the results depend on the processing

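The choice of background decided the calls of the members near it. With the 99th percentile of the Olfr genes, 2 members were above background, as were 7 mature astrocyte and 2 mature oligodendrocyte genes of the wider lists. The counts of 11 radial glial and 8 oligodendrocyte precursor and committed genes above background did not change. The differences of 5 members turned negative with this background, at -0.56 for Aldh1l1, -0.76 for Cspg4, -0.82 for Gfap, -0.56 for S100b and -0.44 for Sox10. That of Mbp was 0.0041. With vomeronasal receptor genes as background, Gfap passed at 0.72. Of 294 values recomputed over all results and alternatives, 284 were counted as unchanged under wide limits. Differences and r had to keep their direction and side of the threshold. Counts had to stay within 1.5 times, and SDs had to change by less than their own size. A fall in an SD cannot break that limit, so the 284 do not measure how stable the SDs were. The calls of the members, and the counts of the 4 wider glial lists to within 1.5 times, held under quantile normalization, median centring, the pseudocount of 16, the fit with no variance trend, the filter on low values and leaving out any 1 array. The SDs were less stable. Quantile normalization took that of Cspg4 from 0.15 to 0.081 and that of Gfap from 0.15 to 0.086, and median centring took that of Sox9 from 0.029 to 0.047 and that of Mbp from 0.035 to 0.054. Leaving out 1 array took the SD to 0.057 for Cspg4 and 0.074 for Gfap (replicate 8), 0.040 for Pdgfra (replicate 5) and 0.069 for S100b (replicate 2). The r of Gfap with Cspg4 ranged from 0.78 without replicate 8 (exact p = 0.0833) to 0.99. With 1 array left out, the differences ranged from 6.37 to 6.44 for Fabp7, from 3.00 to 3.08 for Sox9 and from 0.044 to 0.072 for Gfap. Median centring cannot change a difference from the background of the same array. No paired analysis was possible because there is 1 group. The subtraction of the background level and the relation to it were chosen after seeing the data.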

Other observations

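Id3, a target of BMP signalling listed here with gliogenic progenitors, had the largest SD over arrays in its list, 0.24 around a mean log2 intensity of 10.42 (n = 6). The arrays gave 10.53, 10.67 and 10.68 in replicates 2, 5 and 8 and 10.23, 10.20 and 10.19 in replicates 4, 6 and 7. The other 12 matched genes of that list had SDs from 0.018 for Vim to 0.10 for Pax6. This gene was picked out after its values were seen, and no test was made of a division of the arrays.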
